A study of Mus musculus with 6 samples.

Results

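The interferon-stimulated genes and GTPases are a set of 39 genes that cells switch on when interferon reaches them. They fall into 29 antiviral genes and 10 genes of the Gbp and Irg families of interferon-inducible GTPases. Members were chosen by name, and each was read from a probe set annotated to that gene alone, the brightest one over the 6 arrays where there were several. This gave 35 measured members of 22180 genes in all, 26 of them antiviral and 9 GTPases. Expression of the other 4, Oas1a, Ifi44, Ifi27l2a and Gbp2, was not analysed here, since no probe set was annotated to any of them by itself.

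RNA came from thymocytes of C57BL/6 mice that were wild type or Ets1-/-, aged 5 to 6 weeks, with 3 single-colour Affymetrix arrays per genotype. These were double-positive (CD4+ CD8+) thymocytes, the immature T cells of the thymic cortex, taken on an AutoMACS through CD8 and then CD4 after formaldehyde crosslinking. Ets1 is a transcription factor of lymphocytes, and the comparison asks which transcripts differ when it is missing. No other allele or agent is named for either group, the labels do not say which part of Ets1 is missing, and litter-mate cohorts served as replicates, so p-values measure the spread between these samples.

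Type I interferons signal through IFNAR1 and IFNAR2 and the kinases JAK1 and TYK2 to a complex that includes STAT2 and IRF9 and binds the interferon-stimulated response element of its target genes. Interferon gamma signals through IFNGR1 and IFNGR2, many of its target genes carry the gamma-activated site, and the Gbp and Irg families are classical targets of that branch. In the thymus, interferon is known to act on thymocytes that mature in the medulla, and macrophages and dendritic cells also respond to it strongly.

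Promoter windows from RefSeq (build GRCm38.p6, 250 bases before to 50 after an annotated start, 300 in all) were in hand for 27 of the 39 members. The response element, searched on both strands as GAAA, any 2 bases and GAAA, occurred in the windows of 18 of these 27 members, or 66.7%, against 3.99% of all 27025 genes with a window. It occurred in 7 of 7 GTPases and in 11 of 20 antiviral members. The letters TTCNNNGAA of the gamma-activated site occurred in 4 of 7 GTPases and 4 of 20 antiviral members, against 9.55% of all genes. The ETS motif CCGGAAGT occurred in 2 members, Ifih1 and Ifit2, or 7.41%, against 4.31%. A match is a description of letters, not a bound site.

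The 250 bases before the start are shown whole for Oasl2 and Bst2, the members with a printed promoter that were called higher in Ets1-/-. The Bst2 stretch (chr8:71537473-71537722, minus strand) holds a gamma-activated site that overlaps a pair of overlapping response elements, all in capitals. The Oasl2 stretch (chr5:114896684-114896933, plus strand) has no match to any of the 3 motifs.
Bst2: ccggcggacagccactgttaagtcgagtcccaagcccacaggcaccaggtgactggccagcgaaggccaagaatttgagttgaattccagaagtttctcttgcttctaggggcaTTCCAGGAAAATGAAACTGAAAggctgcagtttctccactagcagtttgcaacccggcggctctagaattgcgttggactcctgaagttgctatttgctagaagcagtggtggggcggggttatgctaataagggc
Oasl2: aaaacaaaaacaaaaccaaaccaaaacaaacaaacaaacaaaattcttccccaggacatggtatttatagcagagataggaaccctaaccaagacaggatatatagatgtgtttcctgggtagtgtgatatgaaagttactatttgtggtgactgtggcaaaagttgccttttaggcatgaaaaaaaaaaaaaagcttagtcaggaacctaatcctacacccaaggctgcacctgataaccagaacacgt

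For some members that share the element, none of them called, the match nearest the start is shown with 10 bases on each side. It is written on the gene's strand, with the response element in capitals, on either strand. The match starts 66 bases before the start in Isg15 (chr4:156200865-156200894, minus strand), 85 in Ifit1 (chr19:34640794-34640823, plus), 122 in Ifit3 (chr19:34583397-34583426, plus) and 39 in Gbp3 (chr3:142559995-142560024, plus). It starts 24 bases before the start in Irgm1 (chr11:48871425-48871454, minus), 34 in Igtp (chr11:58199512-58199541, plus) and 64 in Irgm2 (chr11:58214903-58214932, plus).
Isg15: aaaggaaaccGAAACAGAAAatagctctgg
Ifit1: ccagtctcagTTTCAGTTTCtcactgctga
Ifit3: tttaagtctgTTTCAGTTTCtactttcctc
Gbp3: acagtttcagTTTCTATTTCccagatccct
Irgm1: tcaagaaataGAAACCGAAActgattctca
Igtp: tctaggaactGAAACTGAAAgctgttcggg
Irgm2: tccaggaactGAAACTGAAAgctgttcggg
The stretches of Igtp and Irgm2 were identical at 29 of 30 bases.

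Of the 35 measured members, 3 rose in Ets1-/- and 0 fell: the antiviral genes Oasl2 and Bst2 and the GTPase Iigp1 (limma adjusted p under 0.05 over all 22180 genes). Over all genes 1.86% were called, with 1.29% higher and 0.568% lower. Most classical antiviral genes, among them Isg15, Ifit1, Usp18 and Rsad2, did not pass. Counted without a test, all 3 Ets1-/- arrays lay above all 3 wild-type arrays for 12 members, where 5.76% of all genes did so, and below them for 4 members, where 16.1% of all genes did so. The median difference of the members, Ets1-/- minus wild type, was 0.58 on the log2 scale, and that of all genes was -0.22. Differences were above 0 for 30 of 35 members, against 5990 of all 22180 genes, and 31 members lay above the median of all genes.

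**Figure D1:**
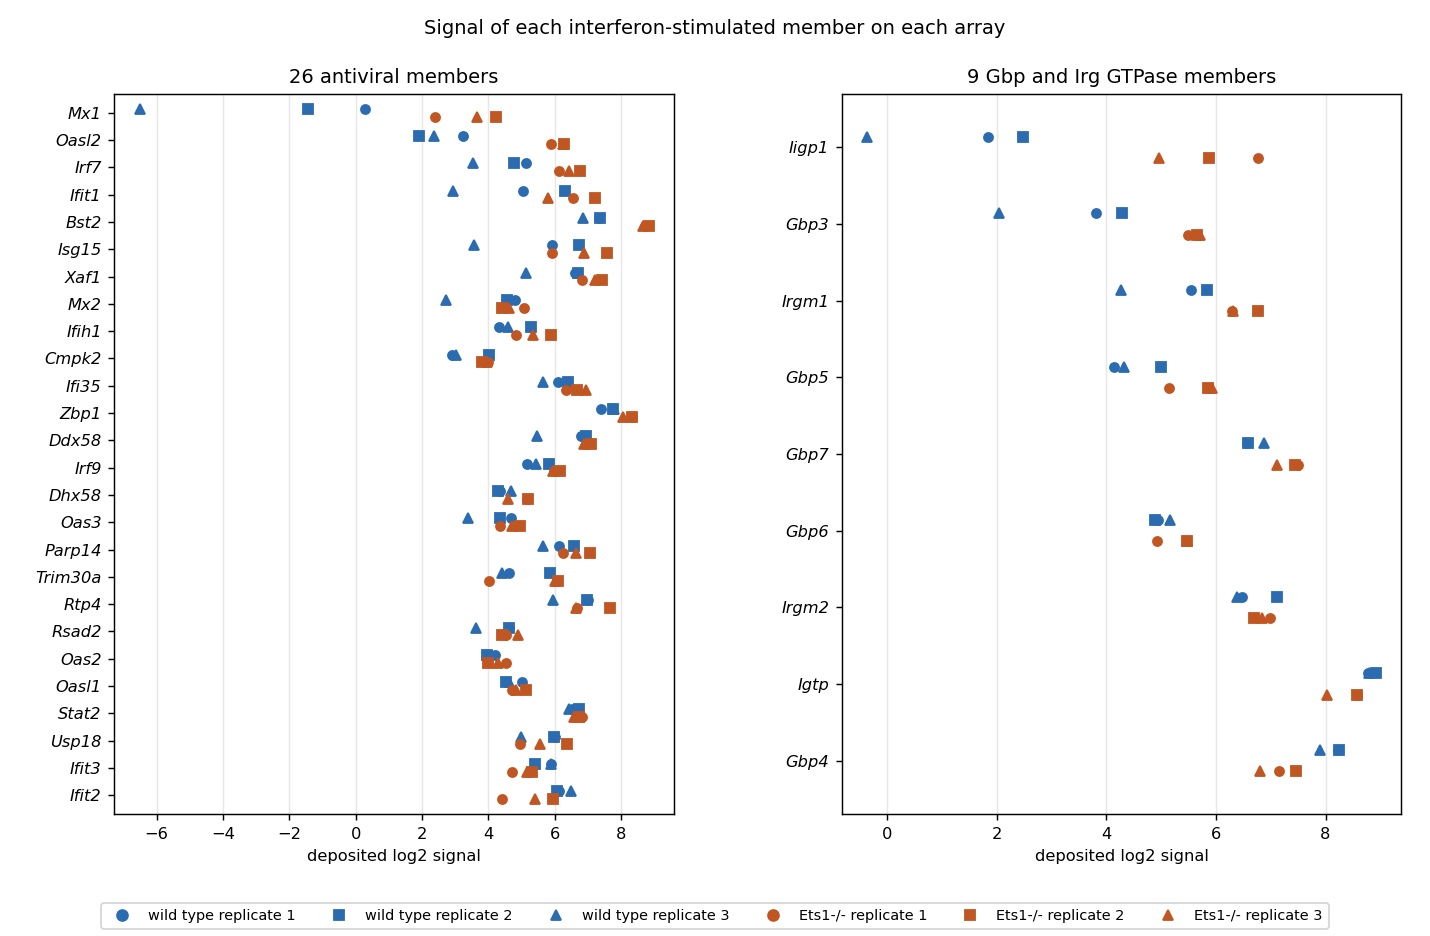
Deposited log2 signal (horizontal axis) of each measured member on each array; blue marks are the 3 wild-type arrays, orange marks the 3 Ets1-/- arrays, and the shape gives the replicate number. Oasl2, Bst2 and Iigp1 separate widely between the groups, the marks of Gbp4 and Ifit2 are lower in Ets1-/-, and the triangle of wild-type replicate 3 stands apart to the left for Isg15, Ifit1, Mx1 and several others.

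The whole series sets some limits for these values. Ets1 itself was read at 9.11, 9.32 and 9.17 in wild type and 9.27, 9.22 and 8.79 in Ets1-/-, so its probe set does not check the labels; the difference was -0.10 ± 0.23 (SE; adjusted p = 0.860), turning to 0.11 with arrays centred on their medians. Array medians over all probe sets were 4.19 to 4.33, except for 3.66 on Ets1-/- replicate 1. Centring the arrays moved the median difference of all genes from -0.22 to -0.01. The double-positive markers were bright on every array, with list medians of 10.67 to 10.70 in wild type and 10.39 to 10.42 in Ets1-/- and 0 of 9 called (limma; 0 at an unadjusted p under 0.05). Differences were 0.13 for Cd4, -0.09 for Cd8a, -0.03 for Cd8b1, -0.29 for Rag2 and -0.46 for Dntt. For 4 of the 9 (Rag2, Dntt, Cd3e and Arpp21) all Ets1-/- arrays lay below all wild-type arrays, where 16.1% of all genes did so. For 1, Cd4, they lay above, where 5.76% of all genes did so. Of all genes, 1.29% were called higher and 0.568% lower. The lists of macrophages (13 of 18 higher), dendritic cells (5 of 12), plasmacytoid dendritic cells (3 of 9), B cells (5 of 11) and mature T cells (6 of 14) held genes called higher in Ets1-/-, with 0 lower in each list. Those of neutrophils, thymic epithelium, erythroid cells, natural killer cells and stroma had 0 called (limma; 1, 1, 0, 3 and 4 at an unadjusted p under 0.05). In such bulk samples a change in the number of cells of a type and a change in RNA per cell cannot be told apart.

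Oasl2 encodes a relative of the oligoadenylate synthetases, enzymes and relatives that sense double-stranded RNA. Its log2 signal was 3.25, 1.90 and 2.35 on wild-type replicates 1 to 3 and 5.90, 6.27 and 6.25 on the Ets1-/- replicates. The groups were far apart, with 2.50 ± 0.69 against 6.14 ± 0.20 (SD, n = 3 each), and the difference was 3.64 ± 0.36 (SE; adjusted p = 0.00277). It was called whichever array was left out, with adjusted p up to 0.0205. The wild-type signal was dim, below the median of 4.13 over all probe sets, and after adding a pseudocount of 16 on the linear scale the difference was 1.98 (adjusted p = 0.000297).

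None of the 3 other measured members of the synthetase family was called. Oas2 and Oas3 encode enzymes whose product activates RNase L, and Oasl1 a relative that acts on translation of Irf7. Oas2 had 0.24 ± 0.24 (SE; adjusted p = 0.686), Oas3 0.53 ± 0.37 (adjusted p = 0.577) and Oasl1 0.18 ± 0.25 (adjusted p = 0.767). The groups overlapped for all 3 genes, and their 95% intervals ran up to 0.79, 1.38 and 0.75, below the lower bound of 2.81 for Oasl2. Of the family genes outside the set, Oas1g was at 0.12, 4.25 and 3.70 in wild type and 4.45, 4.64 and 5.37 in Ets1-/- (2.13, 95% interval -0.13 to 4.38, adjusted p = 0.414), Oas1b had -0.08 and Oas1c -1.58 (adjusted p = 0.933 and 0.161). The differences between these genes were not tested.

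Bst2 encodes tetherin, a membrane protein that holds budding virions on the cell. Its signal was 7.34, 7.38 and 6.84 in wild type and 8.72, 8.83 and 8.65 in Ets1-/-. Every Ets1-/- array was above every wild-type array, and the SD was 0.30 in wild type and 0.09 in Ets1-/-. The difference was 1.54 ± 0.24 (SE; adjusted p = 0.0203), or 2.92-fold. It lost its call when any wild-type array or Ets1-/- replicate 2 or 3 was left out (adjusted p up to 0.0933). With the replicate number as a block in the limma fit it was not called either (adjusted p = 0.0543). The difference was 1.37 without wild-type replicate 3 and 1.44 with the pseudocount of 16 (adjusted p = 0.00187). Bst2 is also a marker of plasmacytoid dendritic cells. Of the other markers of these cells, Plac8 rose by 3.45 ± 0.27 (SE; adjusted p = 0.001), a call that held with any array left out. Siglech was at 4.98, 4.53 and 4.82 in wild type and 4.97, 6.15 and 5.65 in Ets1-/- (difference 0.81, adjusted p = 0.350), Cox6a2 rose by 1.92 and Klk1 by 3.56. Without wild-type replicate 3 or Ets1-/- replicate 2 neither was called, nor was Cox6a2 without wild-type replicate 2 or Ets1-/- replicate 3 (adjusted p up to 0.0690 for Klk1 and 0.0691 for Cox6a2). Spib and Tcf4 had 3.33 and 0.89 (adjusted p = 0.0578 and 0.213), and Pacsin1 and Cd300c -0.16 and -0.22. The list as a whole had a summed linear signal of 1118 to 1367 in wild type and 906 to 1317 in Ets1-/-. A linear sum weighs bright genes most, and the brightest of this list was Ly6d, with means of 10.04 and 8.82. Ly6d had a limma adjusted p of 0.0584 and was called lower with the pseudocount (adjusted p = 0.00717). The median log2 signal of the list, in contrast, was 4.40, 4.49 and 4.20 on the wild-type arrays and 5.73, 6.63 and 5.99 on the Ets1-/- arrays. The part of these markers in the Bst2 result was not tested.

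In the main fit none of the factors that relay the interferon signal was called, and Irf7 was close to the threshold. Irf7, the factor that amplifies type I interferon production, was at 5.15, 4.78 and 3.54 in wild type and 6.14, 6.76 and 6.44 in Ets1-/-. The groups did not overlap, but the wild-type arrays were far apart, and the difference of 1.96 ± 0.42 (SE) had an adjusted p of 0.0732. Among the members that were not called it had the lowest adjusted p. The pseudocount of 16 gave a call (1.39, adjusted p = 0.0172). So did quantile normalization (limma adjusted p = 0.0478), median centring (0.0347) and the filter at the median signal (0.0377). A trended robust prior (0.00223) and array weights (0.0311) gave one too. Leaving out single arrays gave none (adjusted p of 0.0618 to 0.215), and the difference of Irf7 was 1.48 (adjusted p = 0.104) without wild-type replicate 3. Irf9, the DNA-binding partner of STAT2, was at 5.18, 5.83 and 5.44 against 5.97, 6.15 and 5.95, a difference of 0.54 ± 0.25 (adjusted p = 0.415). Stat2 had 0.15 ± 0.22 (adjusted p = 0.770), with overlapping groups.

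The cytoplasmic sensors of viral nucleic acid had similar small differences, none of them called. Ifih1 and Ddx58, which encode MDA5 and RIG-I, had 0.63 ± 0.36 and 0.58 ± 0.40 (SE; adjusted p = 0.519 and 0.576). Dhx58, which encodes their regulator LGP2, had 0.54 ± 0.26 (adjusted p = 0.446). Zbp1 encodes a sensor that triggers necroptosis. It was at 7.40, 7.75 and 7.78 in wild type and 8.33, 8.32 and 8.05 in Ets1-/-, and it was the only one of these 4 genes whose groups did not overlap (0.59 ± 0.23, adjusted p = 0.326).

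The Ifit genes, neighbours on chromosome 19 whose proteins bind viral RNA, went in opposite directions without passing the test. Ifit1 was at 5.03, 6.32 and 2.93 in wild type and 6.55, 7.21 and 5.79 in Ets1-/-, a difference of 1.75 ± 0.79 (SE; adjusted p = 0.407). Ifit2 was at 6.12, 6.06 and 6.48 against 4.40, 5.94 and 5.42, a difference of -0.97 ± 0.39 (adjusted p = 0.348). Ifit3 was at 5.88, 5.40 and 5.89 against 4.70, 5.31 and 5.17, a difference of -0.66 ± 0.27 (adjusted p = 0.350). All 3 Ets1-/- arrays lay below all wild-type arrays for Ifit2 and Ifit3, as for 16.1% of all genes, while the groups overlapped for Ifit1. Both genes were lowest on Ets1-/- replicate 1, the array with the lowest median. Without it the differences were -0.54 for Ifit2, -0.48 for Ifit3 and 1.74 for Ifit1. As printed above, Ifit1 and Ifit3 both hold the response element before their start, and the Ifit2 windows do not.

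Isg15, a ubiquitin-like protein that is conjugated to other proteins, and Usp18, the protease that removes it and dampens interferon receptor signalling, had wide spreads in both groups. Isg15 was at 5.92, 6.74 and 3.58 in wild type and 5.93, 7.59 and 6.87 in Ets1-/-. The groups overlapped, and the difference of 1.38 ± 0.79 (SE; adjusted p = 0.514) was 0.47 without wild-type replicate 3. Usp18 was at 6.00, 5.97 and 4.99 against 4.96, 6.38 and 5.56. Its difference was -0.02 ± 0.43 (adjusted p = 0.988) and turned to 0.19 with median centring and 0.17 with quantile normalization.

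Mx1 and Mx2 are genes of the Mx family of dynamin-like GTPases, counted here with the antiviral members. Mx1 had the largest nominal difference of all members, 5.98 ± 1.53 (SE; adjusted p = 0.123), from 0.29, -1.43 and -6.51 in wild type to 2.39, 4.24 and 3.65 in Ets1-/-. These are among the dimmest signals of the set, and with a pseudocount of 16 the difference was 0.74 (adjusted p = 0.0705). Without wild-type replicate 3 it was 4.00 and was called (adjusted p = 0.0488). Mx2 had 0.68 ± 0.53 (adjusted p = 0.614), and 0.02 without wild-type replicate 3.

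The remaining antiviral members had differences of 0.32 to 1.02, and none was called. Xaf1, which encodes an antagonist of the apoptosis inhibitor XIAP, was at 6.60, 6.69 and 5.14 in wild type and 6.82, 7.43 and 7.22 in Ets1-/- (1.02 ± 0.43, SE; adjusted p = 0.374). Its groups did not overlap, and without wild-type replicate 3 the difference was 0.51. For Rsad2, which encodes the antiviral enzyme viperin, and its neighbour Cmpk2, a nucleotide kinase, the differences were 0.32 ± 0.33 and 0.61 ± 0.33 (adjusted p = 0.685 and 0.492). Rtp4, Trim30a, Ifi35 and the ADP-ribosyltransferase gene Parp14 had 0.36, 0.42, 0.61 and 0.52, with overlapping groups. The second probe set of Ifi35, the only member with more than 1, gave 0.87 (adjusted p = 0.438).

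**Figure D2:**
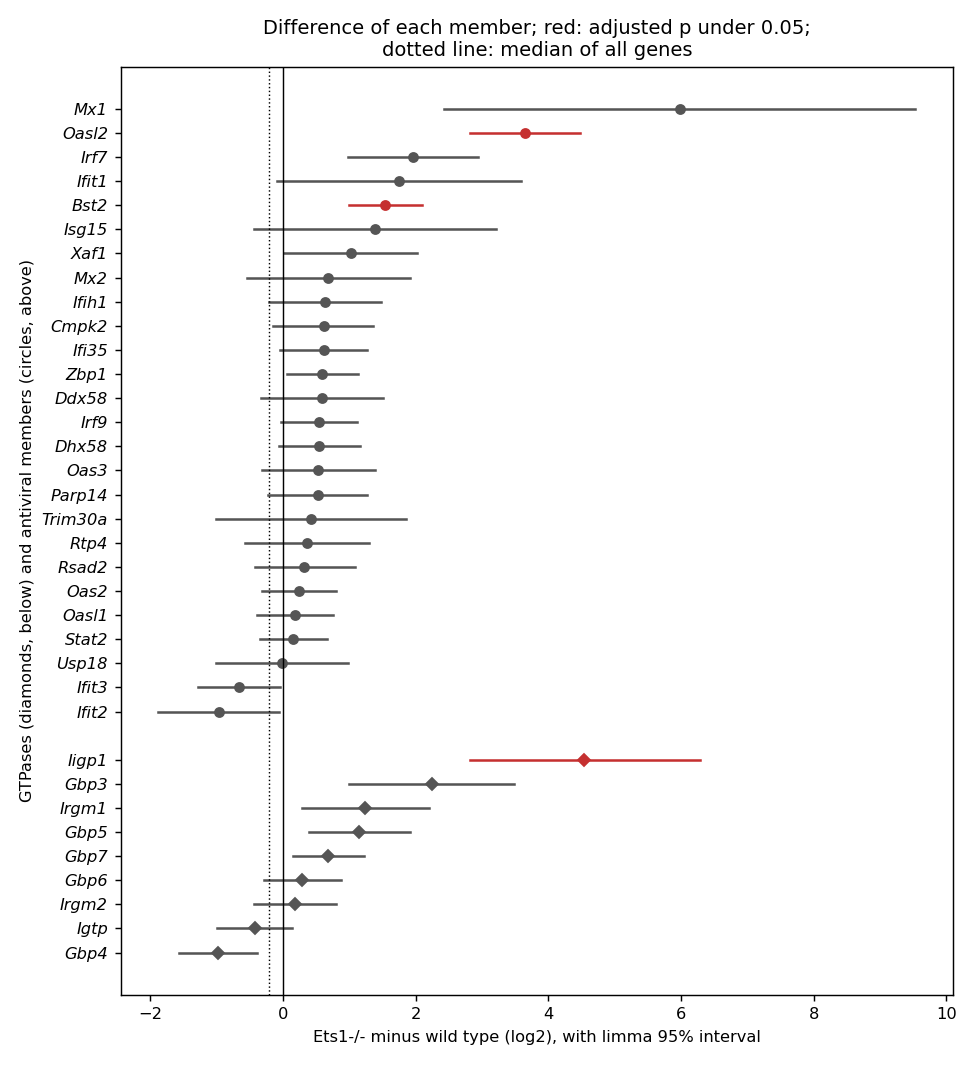
Difference of each member, Ets1-/- minus wild type on the log2 scale, with limma's 95% interval; circles are antiviral members, diamonds Gbp and Irg GTPases, red marks an adjusted p under 0.05, and the dotted line is the median of all genes at -0.22. Oasl2, Bst2 and Iigp1 are red, and both classes hold members below 0.

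The Gbp and Irg GTPases, which attack the vacuoles of intracellular pathogens, had groups that did not overlap for 7 of 9 members (background 21.9%), 5 with Ets1-/- above (background 5.76%) and 2 with Ets1-/- below (background 16.1%). Among the 26 antiviral members these counts were 7 and 2. The class medians were 0.68 for the GTPases and 0.56 for the antiviral members, and whether the classes differ was not tested. The summed linear signal of the antiviral members was 1070 to 1703 in wild type and 2006 to 2734 in Ets1-/-, so the groups were apart. That of the GTPases was 962 to 1165 and 892 to 1153, so the groups overlapped. A linear sum weighs bright members most. The brightest antiviral members were Zbp1 and Bst2, with means of 7.64 and 7.19 in wild type and 8.24 and 8.73 in Ets1-/-. Both had all Ets1-/- arrays above all wild-type arrays, and whether the antiviral sums stay apart without them was not tested. The 2 GTPases with Ets1-/- below, Igtp and Gbp4, were the brightest of the class in wild type, with means of 8.83 and 8.12.

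Iigp1, an effector GTPase of the Irg family, was at 1.85, 2.48 and -0.36 in wild type and 6.76, 5.88 and 4.97 in Ets1-/-. The lowest Ets1-/- array was far above the highest wild-type array, though the arrays within each group were also far apart. The means were 1.32 ± 1.50 and 5.87 ± 0.89 (SD, n = 3 each), and the difference was 4.54 ± 0.75 (SE; adjusted p = 0.0261). Leaving out Ets1-/- replicate 1 or 2 ended its call (adjusted p up to 0.101), as did a trended robust prior (adjusted p = 0.0585), and without wild-type replicate 3 it was 3.70 (adjusted p = 0.0260). The wild-type signal was dim, and with a pseudocount of 16 the difference was 1.98 (adjusted p = 0.0106).

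The other Irg members encode the regulatory proteins of the family, and their genes lie on chromosome 11, Igtp and Irgm2 side by side and Irgm1 elsewhere on it. Irgm1 was at 5.55, 5.84 and 4.27 in wild type and 6.30, 6.76 and 6.31 in Ets1-/- (1.24 ± 0.42, SE; adjusted p = 0.248), with groups apart. Igtp was at 8.77, 8.92 and 8.79 against 8.58, 8.57 and 8.02 (-0.43 ± 0.24, adjusted p = 0.509), with all Ets1-/- arrays below. Irgm2, its neighbour, was at 6.48, 7.12 and 6.39 against 6.98, 6.70 and 6.84 (0.18 ± 0.27, adjusted p = 0.788), with groups overlapping. The near-identical stretches before Igtp and Irgm2 thus stood beside differences whose 95% intervals overlapped.

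Among the 5 measured members that are guanylate-binding proteins, Gbp3 had the largest difference. It was at 3.81, 4.29 and 2.04 in wild type and 5.49, 5.66 and 5.71 in Ets1-/-, and the difference of 2.24 ± 0.53 (SE) had an adjusted p of 0.0994. With a pseudocount of 16 it was 1.23 and was called (adjusted p = 0.0143), and without wild-type replicate 3 it was 1.57 (adjusted p = 0.0662). Gbp5, a protein that promotes inflammasome activation, was at 4.15, 5.00 and 4.32 against 5.15, 5.85 and 5.92 (1.15 ± 0.33, adjusted p = 0.167). Gbp7 was at 6.56, 6.58 and 6.87 against 7.5, 7.44 and 7.11 (0.68 ± 0.23, adjusted p = 0.254). Each of these 3 genes had all Ets1-/- arrays above all wild-type arrays.

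Gbp4 went the other way. It was at 8.22, 8.25 and 7.90 in wild type and 7.16, 7.46 and 6.81 in Ets1-/-, without overlap, and its difference was -0.98 ± 0.26 (SE; adjusted p = 0.131). With a pseudocount of 16 it was called lower (-0.90, adjusted p = 0.0277), the only member that was. Without a pseudocount it was also the only member called lower under 3 other settings. These were the filter at the 75th percentile of signal, the trended robust prior and array weights in the limma fit. Gbp6 had 0.29 ± 0.25 (adjusted p = 0.638).

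Gbp4 was the only measured gene of the Gbp clusters on chromosomes 3 and 5 listed here with a difference below 0. The genes of the chromosome 3 cluster, in their order Gbp5, Gbp7, Gbp3 and Gbp2b, had differences of 1.15, 0.68, 2.24 and 2.89, and Gbp2b, which is not a member, was called (adjusted p = 0.0366). In the chromosome 5 cluster, Gbp8, Gbp9, Gbp4, Gbp10 and Gbp6 had 0.59, 1.74, -0.98, 0.13 and 0.29. Gbp9, next to Gbp4, rose by 1.74 ± 0.27 (SE; adjusted p = 0.0197). Gbp2b lost its call on leaving out any array but Ets1-/- replicate 3 (adjusted p up to 0.131), and Gbp9 on leaving out a wild-type array or Ets1-/- replicate 2 (up to 0.0834). The Gbp genes of a cluster are close copies, so their probe sets may share signal.

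**Figure D3:**
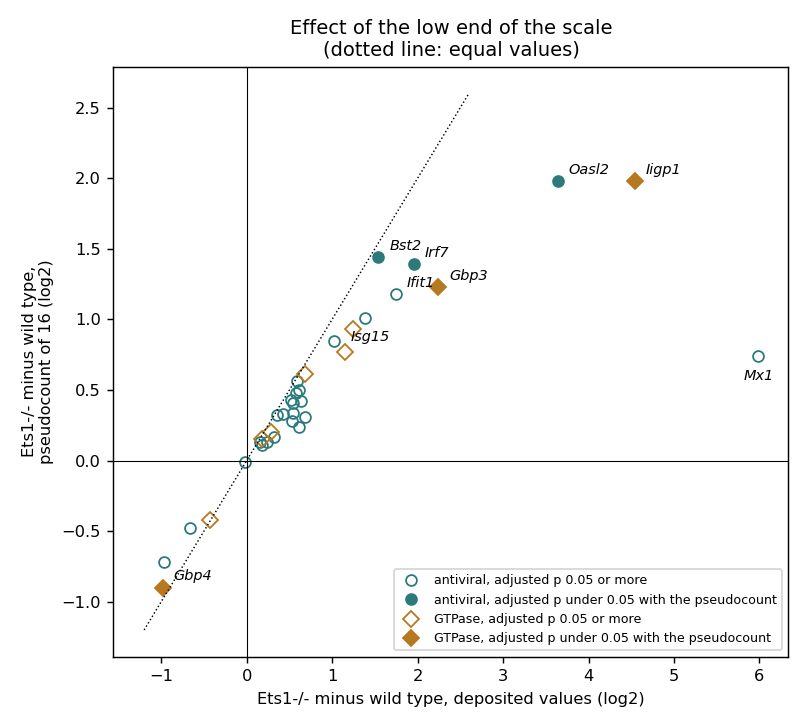
Difference of each member on the deposited log2 values (horizontal) against the same difference with a pseudocount of 16 on the linear scale (vertical); circles are antiviral members, diamonds GTPases, filled marks have an adjusted p under 0.05 with the pseudocount. Mx1 falls from 5.98 to 0.74 and Iigp1 from 4.54 to 1.98, while Bst2 and Gbp4 stay near the line of equal values.

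Which members were called differed with the setting, and the cause of this was not tested. With the pseudocount of 16, 6 members were called: Oasl2, Bst2, Iigp1, Irf7 and Gbp3 higher and Gbp4 lower, where 4.09% of all genes were called, 2.18% higher and 1.91% lower. Under this setting 484 genes were higher and 423 lower over all, against 287 and 126 on the deposited values. The median over the members was then 0.41 and that of all genes -0.10. Quantile normalization called Irf7, Oasl2, Mx1, Bst2, Gbp5 and Iigp1 higher and 0 members lower, where 3.6% of all genes were called, 2.31% higher and 1.28% lower. Both settings together called these 6, Gbp3 higher and Gbp4 lower, where 6.09% of all genes were called, 3.4% higher and 2.69% lower.

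Many antiviral members varied together among the wild-type arrays. Wild-type replicate 3 lay more than 1 below the mean of replicates 1 and 2 for 9 of 26 antiviral members (Irf7, Ddx58, Ifit1, Oas3, Mx1, Mx2, Isg15, Xaf1 and Rtp4) and for 3 of 9 GTPases (Gbp3, Irgm1 and Iigp1). Over all genes this share was 3.82%. For neither of the other wild-type arrays did any member lie that far below the rest of its group. Replicate 3 minus that mean was -2.75 for both Ifit1 and Isg15, -1.51 for Xaf1 and -1.43 for both Irf7 and Irgm1, while replicates 1 and 2 differed by 1.29 for Ifit1, 0.82 for Isg15, 0.08 for Xaf1, 0.37 for Irf7 and 0.29 for Irgm1. The bound of 1 and this grouping were chosen after the values were seen.

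Wild-type replicate 3 was not low for every interferon-stimulated gene or cell type list. By the same count, it was low for 4 of 47 other interferon-stimulated genes (8.51%), for 5 of 14 markers of mature T cells (35.7%), 2 of 18 macrophage markers (11.1%), 2 of 12 dendritic-cell markers (16.7%) and 0 of 9 double-positive markers. The median distance of the mature T-cell markers was -0.54 and that of the antiviral members -0.65. What part mature T cells have in the low values of this array was not tested.

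**Figure D4:**
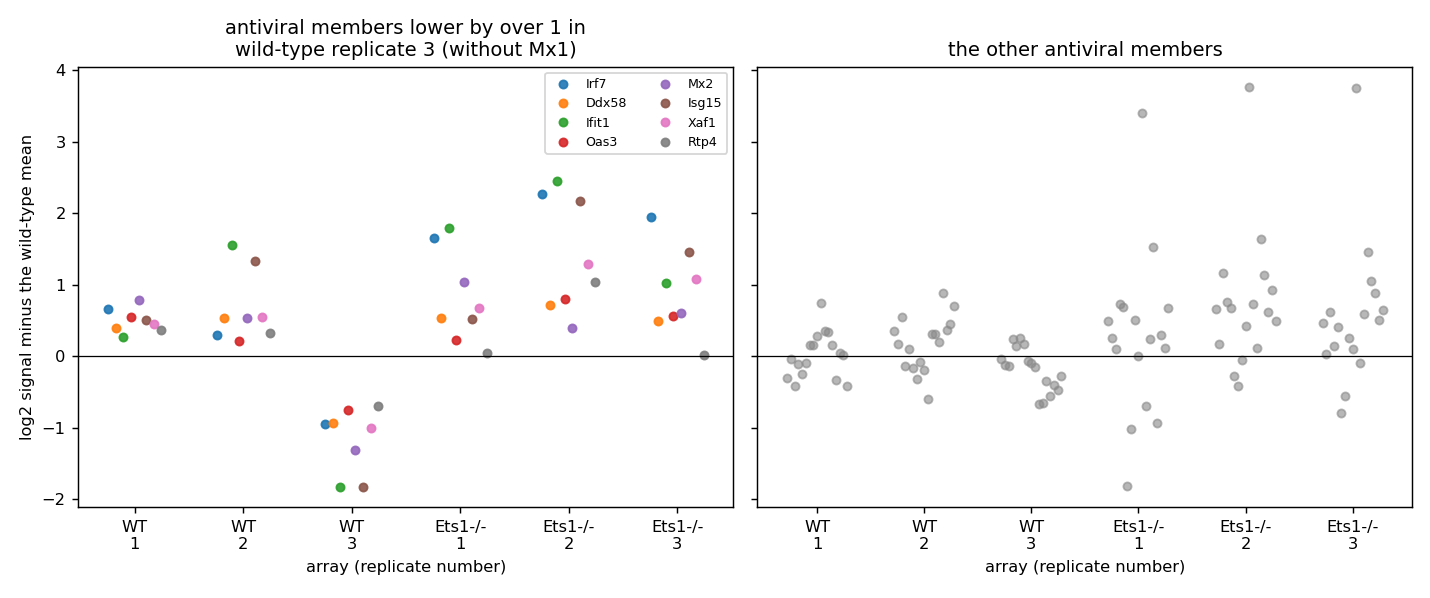
Log2 signal of antiviral members minus their wild-type mean (vertical) on each array (horizontal); the left panel shows the members that lay more than 1 lower on wild-type replicate 3, without Mx1, each in its own colour, and the right panel the other antiviral members in grey. Isg15 and Ifit1 move furthest, and on wild-type replicates 1 and 2 several coloured members reach into the range of the Ets1-/- arrays.

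The difference of several antiviral members was smaller with this array left out: Ddx58 from 0.58 to 0.11, Oas3 from 0.53 to 0.15, Rtp4 from 0.36 to 0.02, Ifit1 from 1.75 to 0.84 and Rsad2 from 0.32 to -0.004. This follows from the low value of these members on that array. Dhx58 and Zbp1, which were highest on it among the wild-type arrays, went from 0.54 to 0.67 and from 0.59 to 0.66. The median over the antiviral members went from 0.56 to 0.35 and that over the GTPases from 0.68 to 0.76. Oasl2, Mx1 and Iigp1 were the 3 members called without it, where 1.11% of all genes were called, 0.915% higher and 0.198% lower. With this array left out and the pseudocount of 16, the 6 called members were again Oasl2, Bst2, Iigp1, Irf7, Gbp3 and Gbp4, the last one lower, where 2.75% of all genes were called, 1.55% higher and 1.2% lower.

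Of the genes upstream of the members, Irf8 and Ifi204 were called, where 1.86% of all genes were called. Of 21 interferon genes, 19 were measured and 0 were called (limma; 2 at an unadjusted p under 0.05, and 0 with the pseudocount). Ifnb1 was at 2.57, 2.64 and 3.03 in wild type and 1.46, 2.54 and 3.17 in Ets1-/- (difference -0.36, adjusted p = 0.728), and Ifng at 4.45, 4.32 and 4.39 against 4.49, 4.44 and 4.53 (0.10, adjusted p = 0.837). The interferon alpha genes are near-identical copies, so their values are uncertain gene by gene, and 10 of the 19 had means below the median of all probe sets in both groups. The smallest p were those of Ifna16 and Ifna1, both at -0.77 (adjusted p = 0.328 and 0.379).

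Receptors and kinases had 0 of 9 called (limma, with 0 at an unadjusted p under 0.05), where 1.86% of all genes were called. Ifnar1 had 0.34, Ifnar2 0.17, Ifngr1 -0.32 and Ifngr2 -0.42, and the kinase Tyk2 0.78 ± 0.37 (SE; adjusted p = 0.424). Of 6 other STAT and IRF factors 1 was called: Irf8, a factor of myeloid cells and B cells, rose by 2.51 ± 0.24 (SE; adjusted p = 0.00232), with means of 5.01 and 7.52. Stat3, Irf1 and the MHC class I activator Nlrc5 had 0.74, 0.56 and 1.44 without passing.

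Of 11 genes of pathways that induce interferon, Ifi204, a DNA sensor of macrophages, was called. It was at 1.22, 2.48 and 0.43 in wild type and 5.22, 6.53 and 6.35 in Ets1-/- (4.65 ± 0.56, SE; adjusted p = 0.00664; 2.12 with the pseudocount). Aim2, Tlr9 and Tlr3 had 0.98, 1.21 and 0.85 (adjusted p = 0.180, 0.231 and 0.291). Of 10 negative regulators 0 were called (limma, with 1 at an unadjusted p under 0.05), where 1.86% of all genes were called. Socs1, the main inhibitor of interferon-gamma signalling, had 0.22 ± 0.26 (adjusted p = 0.724). Trim24 had -0.69 and was called lower with the pseudocount (adjusted p = 0.039).

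Of 47 other interferon-stimulated genes 8 rose and 0 fell, with 1.29% higher over all genes and a list median of 0.23. Samhd1, which destroys nucleotides needed for reverse transcription, was at 4.75, 5.51 and 4.63 in wild type and 8.95, 8.59 and 8.73 in Ets1-/- (3.79 ± 0.29, SE; adjusted p = 0.000979). The chemokines Cxcl10 and Cxcl9 rose by 2.84 (adjusted p = 0.00406) and 1.97 (adjusted p just under the threshold), Phf11b by 2.76, Ifitm2 by 2.78 and Epsti1 by 1.68. The calls of Samhd1 and Cxcl10 held with any array left out. Those of Phf11b, Ifitm2, Epsti1 and Cxcl9 did not, with adjusted p up to 0.0874, 0.141, 0.0710 and 0.162. Phf11b lost its call without any of the Ets1-/- arrays, Ifitm2 without any array but Ets1-/- replicate 3, Cxcl9 without any array but wild-type replicate 1, and Epsti1 without either of wild-type replicates 1 and 2 or without Ets1-/- replicate 2. With the pseudocount Ifitm2 was not called (1.46, adjusted p = 0.0832). Ms4a4c, Ifitm3, Lgals3bp and Ddx60 had 1.63, 2.06, 0.99 and 1.22 (adjusted p = 0.0521, 0.0584, 0.0653 and 0.109), and each was called higher with the pseudocount. Slfn2, at -0.80 (adjusted p = 0.187), was called lower with it (-0.77, adjusted p = 0.0356). Tap1 and Psmb8, targets in antigen presentation, had 0.02 and 0.23, and Ly6e and Adar -0.09 and -0.08.

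**Figure D5:**
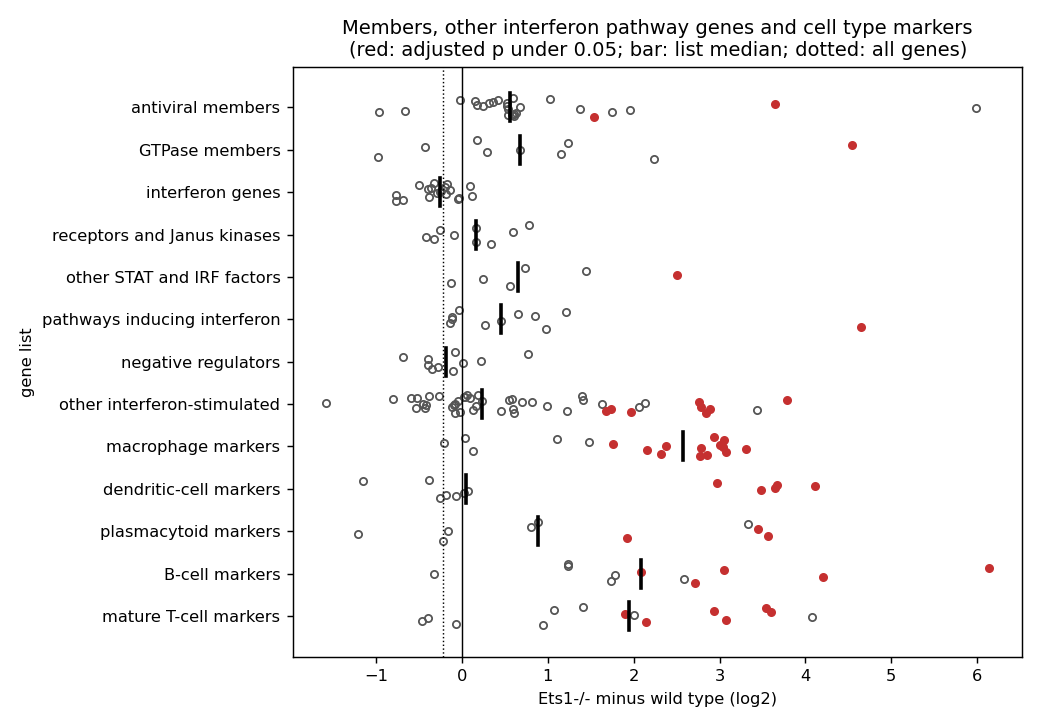
Difference of every measured gene of a list, Ets1-/- minus wild type on the log2 scale, for the members, the other pathway lists and 5 cell type lists; red marks an adjusted p under 0.05, the bar is the list median and the dotted line the median of all genes at -0.22. Interferon genes and negative regulators lie near the dotted line, and the macrophage list lies furthest to the right with a median of 2.57.

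Markers of other cells moved with the same contrast. The summed linear signal of the 18 macrophage markers was 814 to 1036 in wild type and 4324 to 5731 in Ets1-/-, that of the 12 dendritic-cell markers 529 to 611 and 3160 to 3529, and that of the 11 B-cell markers 109 to 144 and 465 to 950. Mature T-cell markers, of which Slfn1 is also on the list of other interferon-stimulated genes, had 1861 to 2618 and 3391 to 4053. Means were below the median of all probe sets in both groups for 3 macrophage markers, among them Timd4 and Marco, for 1 dendritic-cell and 3 B-cell markers and for 0 mature T-cell markers. Their part in the rises of Oasl2, Bst2 and Iigp1 was not tested.

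The called macrophage markers were Csf1r, Cd68, Adgre1, C1qa, C1qb, C1qc, Mpeg1, Ctss, Lyz2, Fcgr1, Fcgr3, Vcam1 and Itgam, with rises of 1.76 (Lyz2) to 3.31 (Csf1r). Those of B cells were Cd79a, Ms4a1, Ebf1, Fcrla and Bank1, with rises of 2.08 (Ebf1) to 6.14 (Ms4a1). Those of mature T cells were Klf2, S1pr1, Ms4a4b, Gimap3, Itgb7 and Cd44, with rises of 1.90 (Itgb7) to 3.60 (Klf2). Differences, called or not, were above 0 for 17 of 18 macrophage, 10 of 11 B-cell and 11 of 14 mature T-cell markers, against 5990 of all 22180 genes. Marco had -0.21, Cr2 -0.32 and Ccr7 -0.07, and Cd14 and Timd4 had 0.13 and 0.04. Gimap6 and Cd52 had -0.39 and -0.46, with all Ets1-/- arrays below all wild-type arrays. Among the dendritic-cell markers H2-Aa, H2-Ab1 and H2-Eb1, class II genes that B cells and macrophages express too, rose by 3.48, 3.65 and 4.11, and Itgax and Sirpa by 3.67 and 2.97. The other 7 were not called: Xcr1 had -1.15, Zbtb46 -0.38, Batf3 -0.25, Cd209a -0.19, Ccr7 -0.07, Flt3 0.03 and Fscn1 0.07, and the list median was 0.05. The calls of Cd68, C1qc, Lyz2, Fcgr3, Vcam1, Ebf1, Gimap3, Itgb7 and Itgax did not hold with every array left out in turn (adjusted p up to 0.134, for Itgb7).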

How the data were processed

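RNA from 6 samples, 3 wild type and 3 Ets1-/-, was measured on 1 array each. The authors deposited 1 table with log2 values of 41345 probe sets; the scale was inferred from their range of -15.86 to 16.36. The submitters' processing notes name affy; for background correction, normalization and genome build, the sources used here give nothing. Of the probe sets, 23521 named 1 gene by the platform annotation, 1814 named several and 16010 were unnamed here; 23328 matched the RefSeq gene table of GRCm38.p6, used for names and neighbours. The number of arrays limits the precision.

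Differences were fitted over all 22180 genes with limma 3.58.1 in R 4.3.3 (lmFit, eBayes, two-sided, no covariate), with Benjamini-Hochberg adjusted p under 0.05 as the call. SE and intervals are limma's. The fit was tested on simulated data. Python 3.11.15, pandas 2.3.3, numpy 2.4.6 and matplotlib 3.10.9 made tables and plots. Alternatives were mean probe sets, filters on dim genes, quantile normalization, median centring, a pseudocount of 16, a trended prior, array weights, a replicate block and each array left out. A pseudocount of 16 without wild-type replicate 3 was added after seeing the data.

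The members and lists were chosen with earlier results of these data known. The rule for named genes was every measured member, Ets1, 5 double-positive markers, and of each other list the called genes and up to 4 further genes by p. Not all of those further genes are named, and some others were named after their values were seen. Protein sequences were not used here, so the planned search of protein motifs was not run.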

Additional observations from a re-analysis of the deposited data

How the results depend on the processing

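The number of members called was 3 on the deposited values. It was 6 with quantile normalization, 5 with median centring, 6 with the pseudocount of 16, 8 with both quantile normalization and the pseudocount, 6 with a trended robust prior, 6 with array weights and 6 with the pseudocount and without wild-type replicate 3; leaving out single arrays gave 1 to 3. Over all genes the number was 413, and 798, 745, 907, 1350, 1172 and 1019 under the first 6 of these settings; leaving out single arrays gave 190 to 379. Higher and lower calls split 287 to 126 in the main setting and turned to 231 against 310 with the filter at the 75th percentile of signal; they were 347 to 264 with the filter at the median, 484 to 423 with the pseudocount, 754 to 596 with quantile normalization added to it, 618 to 554 with the trended prior and 625 to 394 with array weights. The median difference of the GTPases was 0.18 with the filter at the 75th percentile of signal. Usp18, at -0.02, turned to 0.17 with quantile normalization, 0.19 with centring, 0.12 with quantile normalization and the pseudocount, 0.07 with array weights, and it ran from -0.39 to 0.32 with single arrays left out. Rsad2 ran from -0.004 (without wild-type replicate 3) to 0.49 and Ets1 from -0.19 to 0.05 (without Ets1-/- replicate 3), and Ets1 was 0.11 with centring. The causes were not tested. Same-numbered arrays did not deviate together (correlations over genes of -0.08, -0.076 and -0.155). With so few arrays per group this cannot exclude that the numbers pair the samples. With the replicate block 2 members, Oasl2 and Iigp1, were called, and Bst2 had an adjusted p of 0.0543. For 46 genes over all settings, 675 values kept direction and side of the threshold, 41 lost a call, 26 gained one and 11 turned. Dim wild-type signals limit the sizes for Mx1, Iigp1 and Oasl2.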

Other observations

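Genes whose promoter windows hold the response element were also counted over the whole series. Of 657 measured genes with GAAA, any 2 bases and GAAA in a window, 18 were called higher, or 2.74%, and 5 lower, or 0.761%. Of all 16990 measured genes with a window these shares were 1.22% and 0.583%. Of 1555 genes with TTCNNNGAA, 16 were higher, or 1.03%, and 15 lower, or 0.965%. Of 954 genes with the ETS motif CCGGAAGT, 2 were higher, or 0.210%, and 1 was lower, or 0.105%. The median difference was -0.17 for genes with the response element, -0.22 for those with the gamma-activated site and -0.17 for those with the ETS motif, against -0.22 for all genes with a window. These counts are descriptions without a test, and genes of several lists above are among them.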
